A study of Mus musculus with 75 samples.

Results

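Pttg1, Trim12, Rab6b, Sfxn2 and Unc5a are 5 mouse genes whose RNA was higher in animals carrying the C57 nuclear genome than in animals carrying the C3H nuclear genome. They are 5 of the 22423 genes counted on chow and of the 21983 genes counted on a high-fat diet (HFD), and all 5 stand in both tables. They were chosen by measured values of their nuclear difference, taken here to be those on chow, and that difference on chow is given as a description, without a test. The animals fed HFD were other individuals, with 0 animals sampled on both diets, and the tests between nuclear genomes were made in them. If values on HFD also entered the choice, those tests too are a description.

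The libraries come from a mitochondrial-nuclear exchange design, in which the nuclear genome (n) of one strain is combined with the mitochondrial DNA (mt) of another. One wild type, C3H/HeN, is written C3Hn:C3Hmt, and the other, C57BL6/J, is written C57n:C57mt. The exchange lines were C57n:C3Hmt and C3Hn:C57mt. All animals were weaned onto chow and either stayed on it or were moved to HFD at 6 weeks of age, and tissues were taken at 12 to 13 weeks. RNA was sequenced from epididymal white fat (eWAT, 29 libraries), inguinal white fat (iWAT, 30 libraries) and, on chow, gastrocnemius muscle (16 libraries), in 20 groups of 3 or 4 libraries. Sex, the number of founders of each exchange line and any nuclear segments left from the other strain are not stated in the labels. Replicates carry different animal numbers and were treated as separate animals.

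The 5 genes belong to unrelated cellular machineries. Pttg1 encodes securin, which holds separase inactive until anaphase so that sister chromatids stay joined by cohesin. Trim12 is a rodent relative of TRIM5, a family of RING-finger proteins known for restricting retroviruses, and it lies in a cluster of duplicated Trim genes. Rab6b is a Golgi-associated small GTPase best known from neurons, where it guides vesicles together with Bicaudal-D adaptors. Sfxn2 is a sideroflexin, a carrier protein of the inner mitochondrial membrane encoded in the nucleus. Unc5a is a netrin receptor known for repelling growing axons.

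The genes lie on 5 different chromosomes of build NCBIM37 (mm9). Pttg1 spans chromosome 11 from 43233752 to 43239753 on the minus strand, and Trim12, named Trim12a in the annotation, spans chromosome 7 from 111448408 to 111463980, also on the minus strand. Rab6b spans chromosome 9 from 103014404 to 103087600, Sfxn2 chromosome 19 from 46647855 to 46671388 and Unc5a chromosome 13 from 55050772 to 55107379, all on the plus strand.

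Trim12 has a near-identical neighbour, and the 2 coding sequences are shown because they set how far its reads can be told apart. Trim12a and Trim12c (counted under the symbol 9230105E10Rik) were identical at 860 of 892 aligned coding bases, or 96.4%, with a longest identical run of 118 bases. The 60-base stretch below, from the GENCODE transcripts of that build, holds 4 differences, printed in capitals.
Trim12a: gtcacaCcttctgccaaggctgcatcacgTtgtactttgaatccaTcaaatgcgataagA
Trim12c: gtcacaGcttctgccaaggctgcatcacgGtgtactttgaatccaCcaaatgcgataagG
Of the 1482 possible 50-base stretches of the longest Trim12a transcript, 23.5% also occurred in a transcript of another protein-coding gene. Trim5 shared the most, at 17.9%, followed by Trim12c. For Pttg1, Rab6b and Unc5a the same share was 0, and for Sfxn2 it was 0.316%. The gene-level value of Trim12 is therefore uncertain in a way that the other 4 are not.

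Libraries held 15.7 to 31.5 M expected counts (M, mega). Levels below are counts per M of a library's total (CPM). The rate of bases differing from the reference was higher with the C3H nucleus in each tissue on chow (0.451 to 0.640% against 0.271 to 0.331%), and on HFD it was 0.567 to 1.01% against 0.400 to 0.867%, and its part in the results was not tested. The chow libraries came from 1 sequencing run, in which the nuclear genome followed the lane apart from 1 library, while the main HFD runs each held both nuclear genomes. Summed adipocyte markers were 6660 to 43168 CPM in eWAT, 10989 to 41465 CPM in iWAT and 417 to 696 CPM in muscle, and skeletal muscle markers summed to 166847 CPM or more in muscle and to 9.27 to 21655 CPM in iWAT. Epithelium and epididymis markers summed to more than 1000 CPM in 6 of 29 eWAT libraries, and lymphocyte markers to more than 500 CPM in 13 of 30 iWAT libraries.

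On chow every C57n library was above every C3Hn library for all 5 genes in iWAT and in muscle and for 4 of the 5 in eWAT. Over all genes tested the same separation was found for 1.07% in eWAT, 1.90% in iWAT and 3.75% in muscle, and nothing is read from this, since these libraries chose the genes. The one overlap was Unc5a in eWAT, where C57n:C57mt replicate 3 held 8.02 CPM and the C3Hn libraries reached 19.3 CPM.

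**Figure D1:**
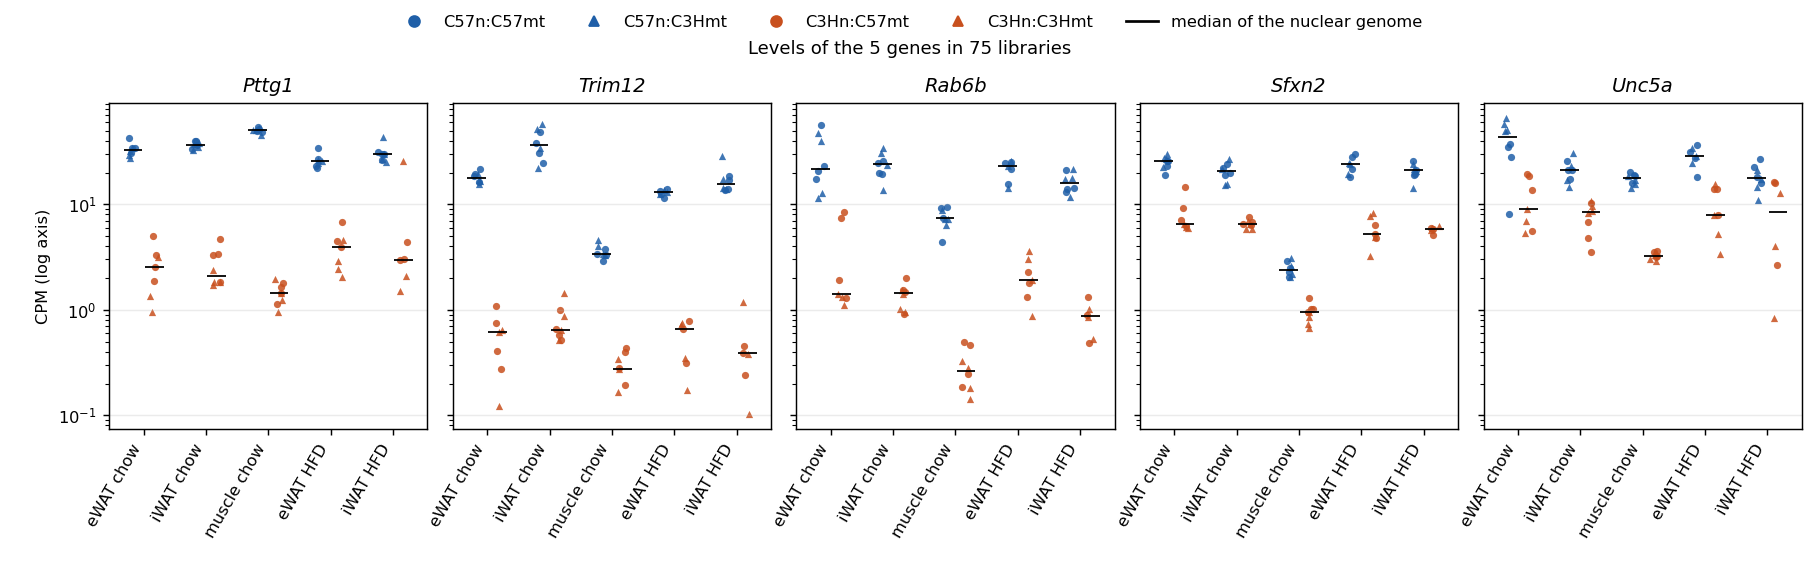
CPM (log axis) of the 5 genes in each library, by tissue and diet; colour marks the nuclear genome, shape the mitochondrial genome, the bar the median of a nuclear genome, and 1 C3Hn muscle library with 0 CPM of Trim12 is not drawn. The nuclear genomes stand apart except for Unc5a in eWAT on chow and in iWAT on HFD and for 1 C3Hn library of Pttg1 in iWAT on HFD.

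The widest separations on chow were those of Pttg1 in muscle and of Trim12 in fat. Securin RNA (Pttg1) was 45.6, 50.4 and 53.8 CPM (lowest, median and highest of 8 C57n libraries) in muscle against 0.961, 1.44 and 1.97 CPM in 8 C3Hn libraries, a ratio of means of 34.8. In eWAT the C57n libraries held 27.3, 33.0 and 42.5 CPM against 0.959, 2.54 and 5.04 CPM (ratio 12.6), and in iWAT 32.9, 36.8 and 39.8 CPM against 1.73, 2.11 and 4.69 CPM (ratio 13.96). The order of nuclear genomes was the same in the 3 tissues, with no overlap, which only describes values that chose the gene.

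Trim12 on chow was 15.6, 17.8 and 21.7 CPM in C57n eWAT against 0.122, 0.609 and 1.09 CPM in C3Hn eWAT, a ratio of means of 32.3. In iWAT the values were 22.3, 36.2 and 57.6 CPM against 0.512, 0.645 and 1.43 CPM (ratio 49.6). Muscle held less of it with either nucleus, at 2.93, 3.38 and 4.54 CPM against 0, 0.277 and 0.438 CPM (ratio 13.6), and 1 muscle library with the C3H nucleus had no count. The C3Hn values rest on few reads, 48.3 expected counts over 8 muscle libraries.

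Rab6b on chow was 11.4, 21.8 and 56.6 CPM against 1.11, 1.40 and 8.51 CPM in eWAT (ratio 8.74), and 13.8, 24.2 and 34.1 CPM against 0.913, 1.45 and 2.02 CPM in iWAT (ratio 17.6). In muscle it was 4.42, 7.37 and 9.40 CPM against 0.144, 0.262 and 0.500 CPM (ratio 25.8). Its eWAT values had the widest spread of the 3 tissues within both nuclear genomes.

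Sfxn2 and Unc5a had the smallest ratios on chow. Sfxn2 was 18.8, 25.6 and 29.7 CPM against 5.97, 6.47 and 14.5 CPM in eWAT (ratio 3.14), and 15.2, 20.7 and 26.8 CPM against 5.85, 6.54 and 7.59 CPM in iWAT (ratio 3.13). In muscle it was 2.02, 2.41 and 3.07 CPM against 0.671, 0.960 and 1.30 CPM (ratio 2.61). RNA of this mitochondrial carrier was counted in every C3Hn library, with 16.8 expected counts in the lowest muscle library.

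Unc5a on chow was 8.02, 43.1 and 66.0 CPM against 5.35, 9.07 and 19.3 CPM in eWAT (ratio 3.68), and 14.7, 21.2 and 30.5 CPM against 3.51, 8.49 and 10.6 CPM in iWAT (ratio 2.73). In muscle it was 14.3, 17.7 and 20.4 CPM against 2.87, 3.26 and 3.57 CPM (ratio 5.32). The muscle libraries were the tightest for this gene.

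One C57n:C57mt eWAT library on chow shared its lane with 7 C3Hn libraries, which lets the 5 genes be read within a lane. It held 34.0 CPM of Pttg1 where the 7 held 0.959 to 5.04 CPM, and 18.7 CPM of Trim12 where they held 0.122 to 1.09 CPM. It held 17.3 CPM of Rab6b against 1.11 to 8.51 CPM, 25.4 CPM of Sfxn2 against 5.97 to 14.5 CPM and 36.9 CPM of Unc5a against 5.35 to 19.3 CPM. With the other lanes, lane and nuclear genome cannot be told apart on chow.

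On HFD all 5 genes were again higher with the C57 nucleus, in eWAT and in iWAT. edgeR's quasi-likelihood test over all genes called 5 of 5 in each depot at a Benjamini-Hochberg adjusted p under 0.05, where 5.59% of genes tested in eWAT and 8.26% in iWAT were called higher. The 5 include Trim12, whose C3Hn libraries held few reads and whose sequence is partly shared with a near-identical copy, so its calls are read with caution. These are bulk tissues, in which a change in the share of a cell type and a change in RNA per cell cannot be told apart. Every C57n library was above every C3Hn library for 5 of 5 genes in eWAT, against 2.32% of all genes, and for 3 of 5 in iWAT, against 2.18%.

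**Figure D2:**
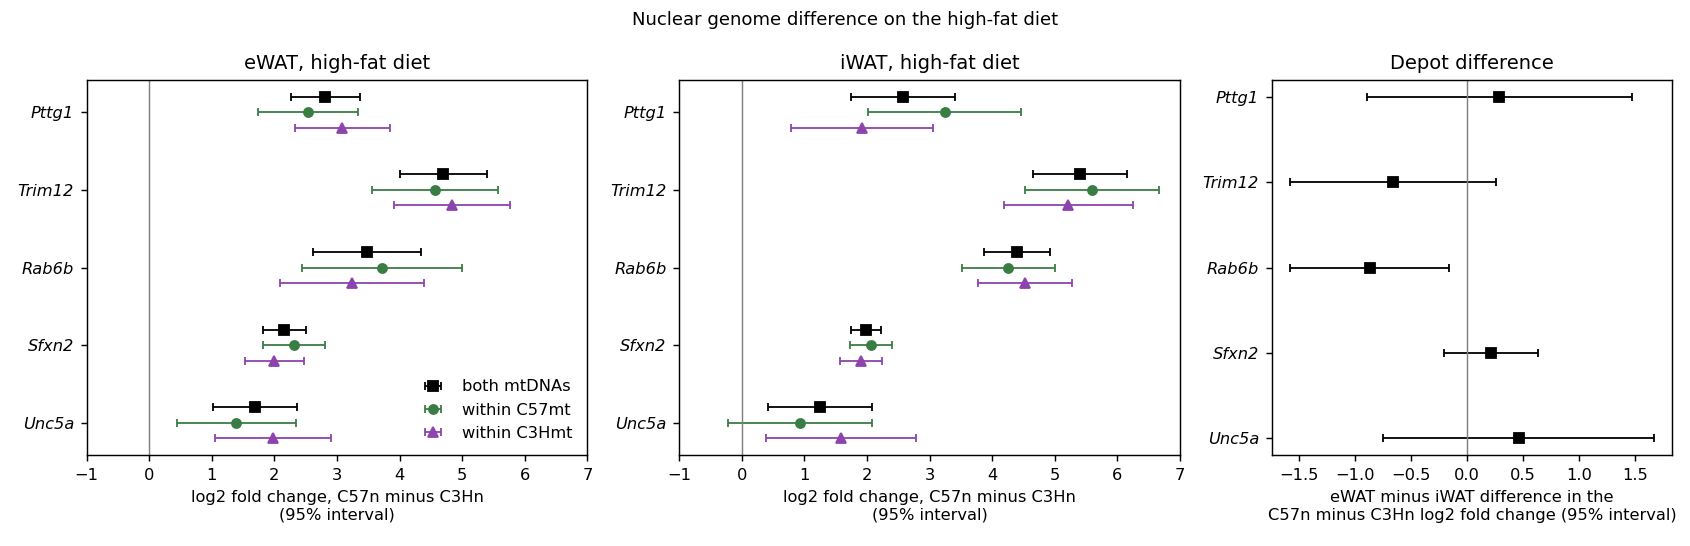
Log2 fold change (C57n minus C3Hn) on HFD with its 95% interval for the 5 genes in eWAT and in iWAT, over both mitochondrial genomes and within each, and at right the eWAT value minus the iWAT value. Over both mitochondrial genomes all 10 intervals lie above 0, with values from 1.26 for Unc5a to 5.40 for Trim12, both in iWAT, while only the depot interval of Rab6b leaves out 0.

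Pttg1 on HFD was 22.1, 26.0 and 34.4 CPM in 7 C57n eWAT libraries and 2.03, 3.94 and 6.82 CPM in 7 C3Hn libraries. The groups did not overlap, and the log2 fold change was 2.81 ± 0.27 (SE; edgeR adjusted p = 1.09e-07). In iWAT 8 C57n libraries held 25.4, 29.8 and 43.3 CPM. The C3Hn:C57mt libraries held 3.05, 4.42 and 2.93 CPM and the C3Hn:C3Hmt libraries 1.49, 2.07 and 25.6 CPM, so that 1 C3Hn library reached the lowest C57n library. The log2 fold change was 2.58 ± 0.40 (edgeR adjusted p = 6.1e-05), and between the wild types alone it was 1.73 and not called (edgeR adjusted p = 0.0535).

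The high library was C3Hn:C3Hmt replicate 3, the single library of the third HFD run. Its proliferation markers summed to 1289 CPM, where the other C3Hn iWAT libraries on HFD held 174 to 442 CPM and the C57n libraries 181 to 379 CPM. Its lymphocyte markers summed to 3374 CPM and its adipocyte markers to 10989 CPM, the highest and the lowest value of the iWAT libraries on HFD. Without it the Pttg1 difference in iWAT was 3.74 ± 0.21 (edgeR adjusted p = 4.59e-12). Within each of the other runs the difference in mean log2 CPM was 3.52 and 3.47. The part of run, lymphocytes and dividing cells in this one value was not tested.

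No other gene of the securin and cohesin machinery was called higher on HFD. Of 28 genes for cohesin, separase, the anaphase-promoting complex and the spindle checkpoint, edgeR called 0 higher in either depot and 1 lower in eWAT and 2 in iWAT, with 2 and 7 at an unadjusted p under 0.05. The checkpoint gene Mad2l1 fell by 0.83 in eWAT and by 0.85 in iWAT on the log2 scale, and Sgol2, which protects centromeric cohesin, fell by 0.66 in iWAT. The list's median log2 fold change was 0.02 in eWAT and 0.01 in iWAT, against -0.05 and -0.02 over all genes. Of all genes tested, 989 of 17687 were called higher and 1343 lower in eWAT, and 1395 of 16884 higher and 1357 lower in iWAT. The counts of this list and of the lists below stand beside these.

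Proliferation markers went lower where they were called. Of 25, edgeR called 0 higher in both depots, 5 lower in eWAT and 3 lower in iWAT, with 10 and 11 at an unadjusted p under 0.05. The DNA-synthesis genes Pcna (fell by 0.80), Tyms (fell by 0.45), Rrm2 (fell by 1.03) and Mcm6 (fell by 0.68) had the smallest p in eWAT. Those in iWAT were Cdc2a, the mitotic kinase (fell by 1.15), Tk1 (fell by 1.5) and Tyms (fell by 0.42). The median was -0.64 in eWAT and -0.76 in iWAT, so Pttg1, itself a gene of dividing cells, differed in sign from the middle of this list. Summed, the markers were 189 to 414 CPM with the C57 nucleus in eWAT on HFD. The C3Hn:C3Hmt libraries there held 248 to 387 CPM, inside that range, and the C3Hn:C57mt libraries 514 to 794 CPM. In iWAT on HFD the C57n libraries held 181 to 379 CPM. The C3Hn libraries there held 174 to 442 CPM apart from C3Hn:C3Hmt replicate 3 at 1289 CPM. The part of the mitochondrial genome and of that 1 library in these calls was not tested.

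Trim12 on HFD was 11.4, 13.0 and 13.9 CPM in C57n eWAT and 0.173, 0.658 and 0.788 CPM in C3Hn eWAT. The groups did not overlap, and the log2 fold change was 4.70 ± 0.34 (edgeR adjusted p = 9.66e-10). In iWAT the values were 13.8, 15.7 and 28.7 CPM against 0.102, 0.387 and 1.19 CPM. The groups did not overlap here either, and the log2 fold change was 5.40 ± 0.36 (edgeR adjusted p = 6.36e-11). The C3Hn libraries on HFD held 4.14 to 14.8 expected counts in eWAT and 1.92 to 19.96 in iWAT, so the 2 fold changes rest on few reads with that nucleus and are read with caution. Without the low-count filter the log2 fold changes were 4.71 and 5.38.

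The deposited transcript table separates the pair of Trim12 copies further. Of the 4 transcripts counted under Trim12, the RefSeq one, called the Trim12a transcript here, carried 71.4% of the gene's count. It was listed at 0 in 35 of 36 C3Hn libraries, with 0.264 CPM in the remaining one, and at 1.91 to 42.7 CPM in 39 C57n libraries. Another of the 4 carried 51.3 to 94.5% of the gene's count in the C3Hn libraries of the 5 settings. A 0 for the Trim12a transcript is thus not a 0 for Trim12 as a gene. Of the 2 transcripts counted under 9230105E10Rik, the one shown above as Trim12c was found in all 36 C3Hn libraries at 1.002 to 34.2 CPM, and in the C57n libraries it was 0 to 17.9 CPM, with 14 of 39 at 0. In iWAT on chow the nuclear genomes overlapped in this Trim12c transcript. Its median there was 12.8 CPM (8.03 to 14.6) with the C3H nucleus and 11.2 CPM (3.41 to 17.9) with the C57 nucleus. The split was wide in eWAT on HFD, where it had a median of 17.3 CPM with the C3H nucleus and 0 with the C57 nucleus. The Trim12a transcript had 0 and 9.92 CPM. The other transcript of 9230105E10Rik went the opposite way there, at a mean of 17.8 CPM with the C57 nucleus and 5.41 CPM with the C3H nucleus, and it carried 54.2 to 96.2% of the gene's count in the C57n libraries of the 5 settings. A 0 for the transcript shown above as Trim12c is thus not a 0 for Trim12c as a gene. Estimated counts of near-identical transcripts depend on how reads were divided between them against a reference of the C57BL/6J strain, and how far this sets the 2 patterns was not tested.

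**Figure D3:**
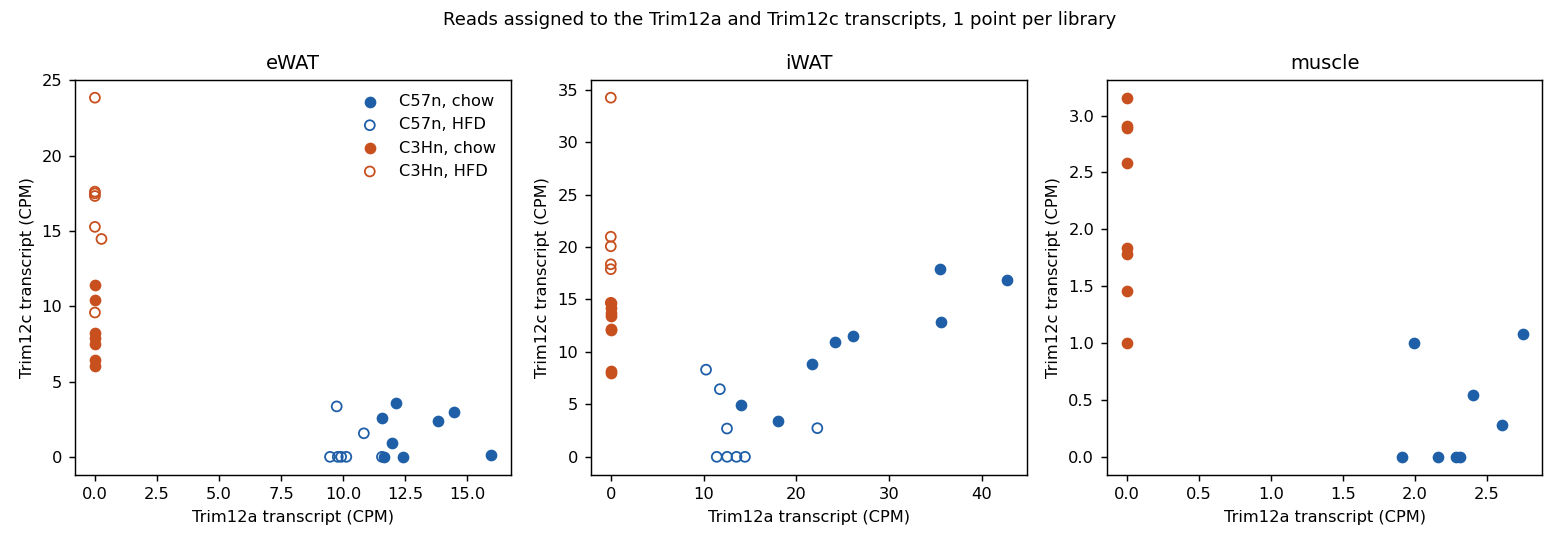
CPM of 1 of the 2 transcripts of Trim12c against CPM of the Trim12a transcript in eWAT, iWAT and muscle; each point is 1 library, with colour for the nuclear genome and filled points for chow. C3Hn libraries line up at a level of 0 (35 of 36) for the Trim12a transcript, which is 1 of the 4 counted under Trim12. C57n libraries lie between 1.91 and 42.7 CPM of it, and 14 of 39 of them at a level of 0 for that Trim12c transcript.

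At the level of genes, the other members of the Trim cluster moved in both directions on HFD. Trim12c, under 9230105E10Rik, was 13.2 to 24.5 CPM in C57n and 9.58 to 30.2 CPM in C3Hn eWAT, with log2 fold changes of -0.15 in eWAT (edgeR adjusted p = 0.596) and -0.37 in iWAT (edgeR adjusted p = 0.223). Trim6 fell by 1.89 in eWAT and by 2.07 in iWAT, with edgeR adjusted p values of 0.000153 and 2.51e-06. Of 7 TRIM5-like genes tested beside Trim12, 1 was called higher and 1 lower in eWAT and 0 higher and 1 lower in iWAT, with 5 and 2 at an unadjusted p under 0.05.

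Trim12a also lies inside genes of the opposite strand, overlapping Trim34a over 15573 bases and Trim34b over 15237 bases. Whether counting used strand is not given in the sources used here, so reads of the overlapping genes may not be told apart. Trim34, the one counted under that name, rose by 0.64 in eWAT (edgeR adjusted p = 0.026) and was at 0.61 in iWAT (edgeR adjusted p = 0.119).

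Rab6b on HFD was 14.3, 22.8 and 25.7 CPM in C57n eWAT against 0.879, 1.91 and 3.63 CPM in C3Hn eWAT. The log2 fold change was 3.48 ± 0.42 (edgeR adjusted p = 3.47e-06). In iWAT the values were 11.7, 15.8 and 21.6 CPM against 0.489, 0.872 and 1.33 CPM, with a log2 fold change of 4.39 ± 0.26 (edgeR adjusted p = 5.01e-12). Neither depot showed an overlap.

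The RAB6 partner list had few called genes on HFD. Of 13 partners and relatives, 1 was called higher and 1 lower in eWAT, and 2 higher and 0 lower in iWAT, where 4 were at an unadjusted p under 0.05. Bicd1 and Bicd2, the adaptors that link Rab6 vesicles to dynein, rose by 1.63 and 0.39 in iWAT. Erc1, a Rab6-binding docking protein, rose by 0.90 in eWAT and Mical1, a RAB6 effector that oxidises actin, fell by 0.87 there. The medians were -0.03 in eWAT and 0.02 in iWAT.

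Because Rab6b and Unc5a are known from neurons, nerve markers were read beside them. Of 12 neuron and Schwann cell markers in eWAT 1 was called higher (the neurofilament gene Nefm, which rose by 1.98) and 2 lower (S100b, which fell by 1.24, and Gap43, which fell by 1.37). In iWAT 2 of 10 were called higher (Uchl1, which rose by 3.18, and Tubb3, which rose by 1.29) and 1 lower (Stmn2, which fell by 0.96). The summed level was 57.5 to 67.4 CPM with the C57 nucleus and 47.4 to 93.9 CPM with the C3H nucleus in eWAT, and 84.8 to 181 CPM against 110 to 185 CPM in iWAT, and the part of nerve content was not tested.

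Sfxn2 on HFD was 18.3, 23.8 and 29.8 CPM in C57n eWAT against 3.21, 5.20 and 8.21 CPM in C3Hn eWAT. The log2 fold change was 2.16 ± 0.17 (edgeR adjusted p = 3.69e-09). In iWAT the values were 14.3, 21.0 and 25.5 CPM against 5.15, 5.87 and 6.19 CPM, with a log2 fold change of 1.98 ± 0.12 (edgeR adjusted p = 5.01e-12). The groups did not overlap, and the SE was the smallest of the 5 genes in both depots.

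Among 12 genes of the sideroflexin family and of mitochondrial one-carbon metabolism, 1 was called higher and 1 lower in eWAT, and 1 higher and 2 lower in iWAT. Sfxn1, the mitochondrial serine carrier, rose by 0.98 in eWAT and by 1.14 in iWAT. Sfxn3 fell by 0.65 and 0.29, and Shmt2, which makes mitochondrial glycine from serine, fell by 0.87 in iWAT. The list's median was -0.52 in eWAT and -0.04 in iWAT.

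Unc5a on HFD was 18.1, 28.8 and 36.4 CPM in C57n eWAT against 3.35, 7.86 and 15.5 CPM in C3Hn eWAT. The groups did not overlap, and the log2 fold change was 1.69 ± 0.32 (edgeR adjusted p = 0.000989). In iWAT the C57n libraries held 11.0, 17.8 and 26.7 CPM. The C3Hn:C57mt libraries there held 15.9, 2.65 and 16.4 CPM and the C3Hn:C3Hmt libraries 4.0, 12.9 and 0.834 CPM. Of these 6 values, 3 lay above the lowest C57n library, and the log2 fold change was 1.26 ± 0.40 (edgeR adjusted p = 0.0339).

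The iWAT call of Unc5a was the weakest of the 10. It was lost without C3Hn:C3Hmt replicate 3 (0.99, edgeR adjusted p = 0.054), without the libraries rich in lymphocyte markers (0.78, edgeR adjusted p = 0.0704), and when only HFD libraries were fitted (1.23, edgeR adjusted p = 0.167). Leaving out 1 library at a time gave 0.99 to 1.84, with the call lost in 6 of 30 cases. Within the 2 main HFD runs the difference in mean log2 CPM was 1.53 and 0.37, and in both the highest C3Hn library was above the lowest C57n library. The 2 C3Hn libraries rich in lymphocyte markers held 0.834 and 2.65 CPM and the other 4 held 4.0 to 16.4 CPM, and the part of these cells was not tested.

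No other gene of the netrin system was called on HFD. Of netrins, their receptors and UNC5 relatives, edgeR called 0 of 16 in eWAT and 0 of 17 in iWAT, with 2 and 4 at an unadjusted p under 0.05, and the median log2 fold change was 0.05 and 0.00. Of all genes, 989 of 17687 were called higher and 1343 lower in eWAT, and 1395 of 16884 higher and 1357 lower in iWAT. In a list of this size, no result about the netrin system is read from the counts. Unc5a shares 34 bases with the hexokinase gene Hk3 on the opposite strand. Hk3 went the other way, falling in both depots, with log2 fold changes of -2.14 in eWAT and -1.05 in iWAT.

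The difference was then read within each mitochondrial genome on HFD. With C57 mtDNA edgeR called 4 of 5 genes higher in eWAT (3.41% of all genes) and 4 of 5 in iWAT (2.84%). With C3H mtDNA it called 5 of 5 in eWAT (0.984%) and 4 of 5 in iWAT (3.63%). These counts include Trim12, whose C3Hn libraries held few reads, so its calls are read with caution. The exception was always Unc5a, at 1.39 in eWAT with C57 mtDNA (edgeR adjusted p = 0.0648) and, in iWAT, at 0.93 with C57 mtDNA (edgeR adjusted p = 0.424) and 1.58 with C3H mtDNA (edgeR adjusted p = 0.0914). These subsets hold 3 or 4 libraries a side. In eWAT all C57n:C3Hmt libraries on HFD came from the same run, which held only replicate 4 of C3Hn:C3Hmt. Within C3H mtDNA, run and nuclear genome can thus hardly be told apart there.

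None of the 5 genes was called between mitochondrial genomes. Over 10 comparisons of an exchange line with the wild type of the same nucleus, edgeR called 0 of 50 gene tests, with 3 at an unadjusted p under 0.05, and DESeq2 called 0. On chow, 6 of these comparisons use libraries that chose the genes, though within 1 nuclear genome at a time. Over all genes and these comparisons 0.00181% were called. The 3 were Unc5a in C57n eWAT on chow (1.13, 95% interval 0.27 to 1.98, edgeR adjusted p = 0.173), Rab6b in C3Hn eWAT on chow (1.64, 0.46 to 2.82, edgeR adjusted p = 0.319) and Pttg1 in C3Hn iWAT on HFD (-1.51, -2.71 to -0.32, edgeR adjusted p = 0.429). The last includes C3Hn:C3Hmt replicate 3, the single library of its run, and the log2 values of all 50 ran from -1.51 to 1.64. In eWAT on HFD the C57n:C3Hmt libraries shared their run with only replicate 4 of C57n:C57mt. Run and mitochondrial genome can thus hardly be told apart in that comparison.

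Whether the nuclear difference was wider in one depot was tested on HFD as eWAT minus iWAT. edgeR called 0 of 5 genes, with 1 at an unadjusted p under 0.05 and 0.326% of all genes called, and DESeq2 called 0 of the 4 for which it gave an adjusted p. The difference between depots was -0.87 for Rab6b (95% interval -1.58 to -0.16, edgeR adjusted p = 0.467), -0.66 for Trim12 (-1.58 to 0.26), 0.21 for Sfxn2 (-0.20 to 0.63), 0.29 for Pttg1 (-0.90 to 1.47) and 0.46 for Unc5a (-0.75 to 1.67). The intervals of Pttg1, Trim12 and Unc5a include 0 and reach 1.47 log2 units or more in size, so the data leave room for unequal depots in these genes. With the animal as a block, in the 12 animals that gave both depots, 26 in place of 54 genes were called over the whole table and again none of the 5. Without C3Hn:C3Hmt replicate 3 of iWAT the value for Pttg1 was -0.91 (edgeR adjusted p = 0.211).

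Muscle was sequenced on chow only, and its ratios stand beside those of fat as values. Pttg1, Rab6b and Unc5a had their highest chow ratio in muscle, at 34.8, 25.8 and 5.32, and Trim12 and Sfxn2 their lowest, at 13.6 and 2.61. The order of levels with the C57 nucleus was different for each gene. Pttg1 was highest in muscle, at 50.5 ± 2.59 CPM (SD, n = 8), followed by iWAT and eWAT on chow (36.6 ± 2.68 and 33.0 ± 4.56 CPM, n = 8 each) and iWAT and eWAT on HFD (30.3 ± 5.63 CPM, n = 8, and 26.2 ± 4.03 CPM, n = 7). Below muscle, each step in this order was smaller than the SD of one of its neighbours.

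With the C57 nucleus Trim12 was highest in iWAT on chow, at 38.4 ± 12.9 CPM (SD, n = 8), and lowest in muscle, at 3.57 ± 0.50 CPM (n = 8). Between them lay eWAT on chow (18.0 ± 2.07 CPM), iWAT on HFD (17.2 ± 5.02 CPM) and eWAT on HFD (12.9 ± 0.834 CPM), with steps smaller than the SD of iWAT on HFD. Rab6b was 28.7 ± 17.04 CPM in eWAT and 24.0 ± 6.41 CPM in iWAT on chow, 21.4 ± 4.62 CPM in eWAT and 16.3 ± 3.68 CPM in iWAT on HFD, and 7.52 ± 1.65 CPM in muscle. Only the steps to iWAT on HFD and to muscle passed both SDs.

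Sfxn2 with the C57 nucleus was 20.6 to 24.9 CPM on average in the 4 fat settings, within the SD of each other from neighbour to neighbour, and 2.46 ± 0.391 CPM (SD, n = 8) in muscle. Unc5a was highest in eWAT on chow, at 41.3 ± 18.4 CPM (SD, n = 8), then 28.7 ± 6.15 CPM in eWAT on HFD and 21.3 ± 5.10 CPM in iWAT on chow. Its lowest levels, 18.4 ± 4.87 CPM in iWAT on HFD and 17.4 ± 2.04 CPM in muscle, differed by less than the SD. Trim12, Rab6b and Sfxn2 were thus lowest in muscle by a step wider than the SDs.

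With the C3H nucleus the order of levels was set by smaller values. Pttg1 was 6.59 ± 9.34 CPM (SD, n = 6) in iWAT on HFD, 3.88 ± 1.63 CPM (n = 7) in eWAT on HFD and 1.45 ± 0.343 CPM (n = 8) in muscle. The first place of iWAT rests on C3Hn:C3Hmt replicate 3 at 25.6 CPM, where the other 5 held 1.49 to 4.42 CPM. Trim12 was 0.262 to 0.775 CPM on average in the 5 settings and Rab6b 0.291 to 3.28 CPM. Sfxn2 was 0.940 ± 0.195 CPM (n = 8) in muscle and 5.77 to 7.93 CPM in fat, and Unc5a 3.27 ± 0.253 CPM (n = 8) in muscle and 7.81 to 11.2 CPM in fat.

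Diet calls were no more frequent among these genes than among all genes, and their number is no result about them. The mean over 4 genotypes was tested as HFD minus chow, for which edgeR called 3 of the 10 gene and depot pairs, where it called 41.3% of all genes in eWAT and 37.6% in iWAT, in either direction. The chow side uses the libraries that chose the genes, with both nuclear genomes weighted alike. In iWAT Trim12 fell by 1.02 ± 0.21 (SE, edgeR adjusted p = 0.000526) and Rab6b fell by 0.66 ± 0.15 (edgeR adjusted p = 0.00129). Without the 13 iWAT libraries rich in lymphocyte markers Rab6b was at -0.38 and its call was lost. That fit left 1 library in some chow groups, and the part of lymphocytes was not tested. In eWAT Sfxn2 fell by 0.29 ± 0.11 (edgeR adjusted p = 0.0365), a call lost in 15 of 29 fits that each left out 1 library. Chow and HFD libraries came from different runs, so diet and run cannot be told apart.

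The other 7 pairs had values from -0.37 to 0.41. In eWAT they were 0.14 for Pttg1 (edgeR adjusted p = 0.535), -0.30 for Trim12 (0.241), -0.37 for Rab6b (0.271) and -0.30 for Unc5a (0.275). In iWAT they were 0.41 for Pttg1 (edgeR adjusted p = 0.209), -0.12 for Sfxn2 (0.198) and -0.08 for Unc5a (0.833). Without C3Hn:C3Hmt replicate 3 of iWAT on HFD the value of Pttg1 turned to -0.21 (edgeR adjusted p = 0.144) and that of Unc5a to 0.015 (edgeR adjusted p = 0.969). The diet response was not compared between nuclear genomes, because the chow values chose the genes.

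Rab6b in eWAT moved with epithelium and epididymis markers. On chow the 3 C57n libraries above 1000 CPM of these markers held 40.0 to 56.6 CPM of Rab6b and the other 5 held 11.4 to 23.0 CPM. The 2 such C3Hn libraries held 7.38 and 8.51 CPM and the other 5 held 1.11 to 1.92 CPM. Within either marker range the nuclear genomes did not overlap.

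On HFD the 1 eWAT library of that kind, with the C3H nucleus, held 3.63 CPM of Rab6b where the other 6 held 0.879 to 3.03 CPM. Without the 6 eWAT libraries of both diets the HFD nuclear differences were 2.76 for Pttg1, 4.64 for Trim12, 3.62 for Rab6b, 2.24 for Sfxn2 and 1.94 for Unc5a, all called by edgeR. The diet value of Rab6b turned to 0.27 (edgeR adjusted p = 0.206) and that of Unc5a to -0.53 (edgeR adjusted p = 0.0212). The part of these markers in the diet values was not tested.

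**Figure D4:**
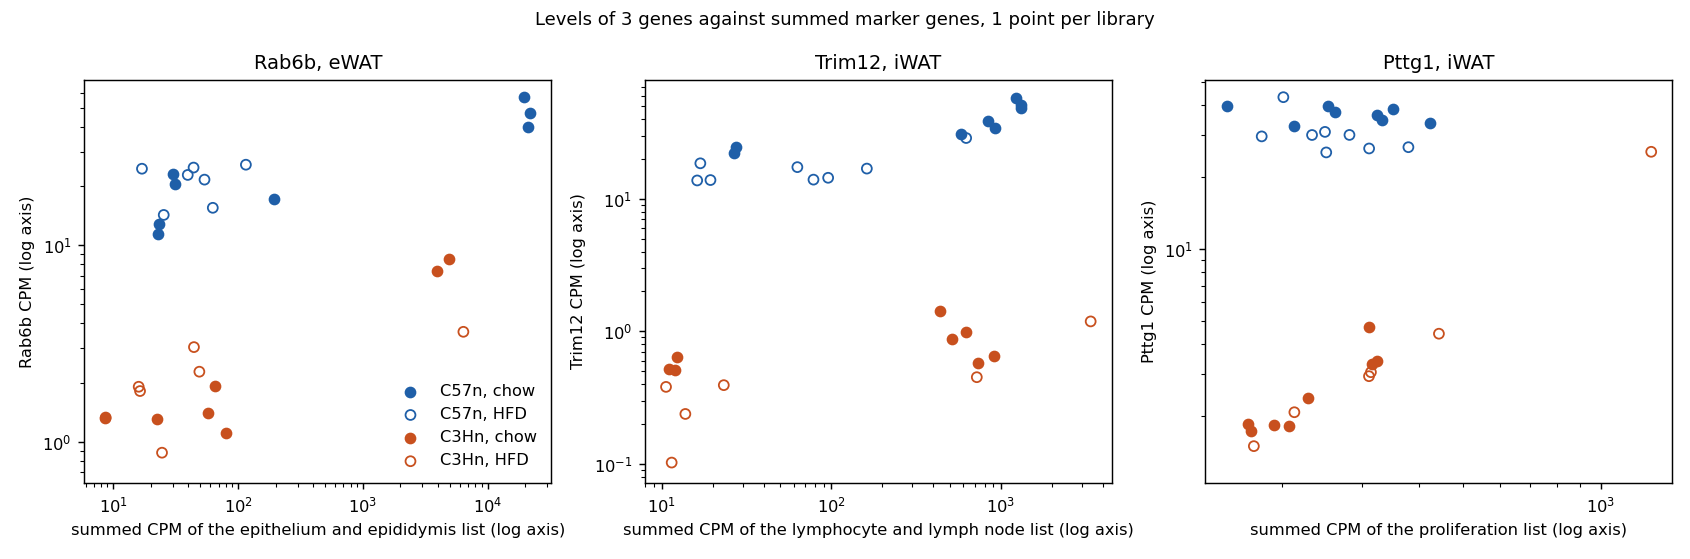
CPM of Rab6b in eWAT, Trim12 in iWAT and Pttg1 in iWAT against the summed CPM of epithelium and epididymis, lymphocyte and proliferation markers, all on log axes; each point is 1 library, with colour for the nuclear genome and filled points for chow. For Rab6b and Trim12 every C57n point lies above every C3Hn point, and for Pttg1 1 C3Hn library with a marker sum of 1289 CPM lies at the height of the C57n points.

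Trim12 in iWAT moved with lymphocyte markers in 3 of the 4 sets of a nuclear genome on a diet. On chow 6 C57n libraries above 500 CPM of these markers held 30.8 to 57.6 CPM of Trim12 and the other 2 held 22.3 and 24.6 CPM. On HFD the 1 such C57n library held 28.7 CPM and the other 7 held 13.8 to 18.5 CPM. With the C3H nucleus on chow the ranges overlapped, at 0.578 to 0.990 CPM in 4 libraries and 0.512 to 1.43 CPM in the other 4. With the C3H nucleus on HFD the 2 libraries rich in these markers held 0.451 and 1.19 CPM and the other 4 held 0.102 to 0.393 CPM. The part of lymphocytes in the level of Trim12 was not tested.

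Without the 13 iWAT libraries rich in these markers the HFD nuclear differences were 3.87 for Pttg1, 5.90 for Trim12, 4.56 for Rab6b and 1.94 for Sfxn2, all called by edgeR, beside the lost call of Unc5a. The diet value of Trim12 was -0.97, in a fit that left 1 library in some chow groups. Between nuclear genomes on HFD, edgeR called 0 of 11 lymphocyte markers in either depot (0 and 2 at an unadjusted p under 0.05) and 0 of 13 epithelium and epididymis markers in eWAT (1). Of 8 adipocyte markers, complement factor D (Cfd) rose in eWAT, by 2.49, and in iWAT, by 2.07, and adiponectin (Adipoq) rose by 0.98 in iWAT. Summed lymphocyte markers were 26.6 to 1316 CPM in C57n and 11.0 to 911 CPM in C3Hn iWAT on chow.

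Genes beside the 5 on the chromosome were called in both directions, and most were not called. Of the 5 nearest counted genes on each side of each, 50 in all, 3 were called higher and 5 lower in eWAT on HFD and 5 higher and 7 lower in iWAT. These genes lay up to 6184 kb from Pttg1, 1540 kb from Trim12, 486 kb from Rab6b, 338 kb from Unc5a and 290 kb from Sfxn2, so not all are close. Their median log2 fold change was 0.01 and 0.05. The highest was that of AI451617, annotated as Trim30d, 155 kb from Trim12, which rose by 3.26 in eWAT and by 2.94 in iWAT (edgeR adjusted p = 0.000624 and 5.73e-06). Arl3, a small GTPase of ciliary traffic 0.28 kb from Sfxn2, was at 0.53 in eWAT (edgeR adjusted p = 0.0506) and rose by 0.87 in iWAT (edgeR adjusted p = 7.02e-05).

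**Figure D5:**
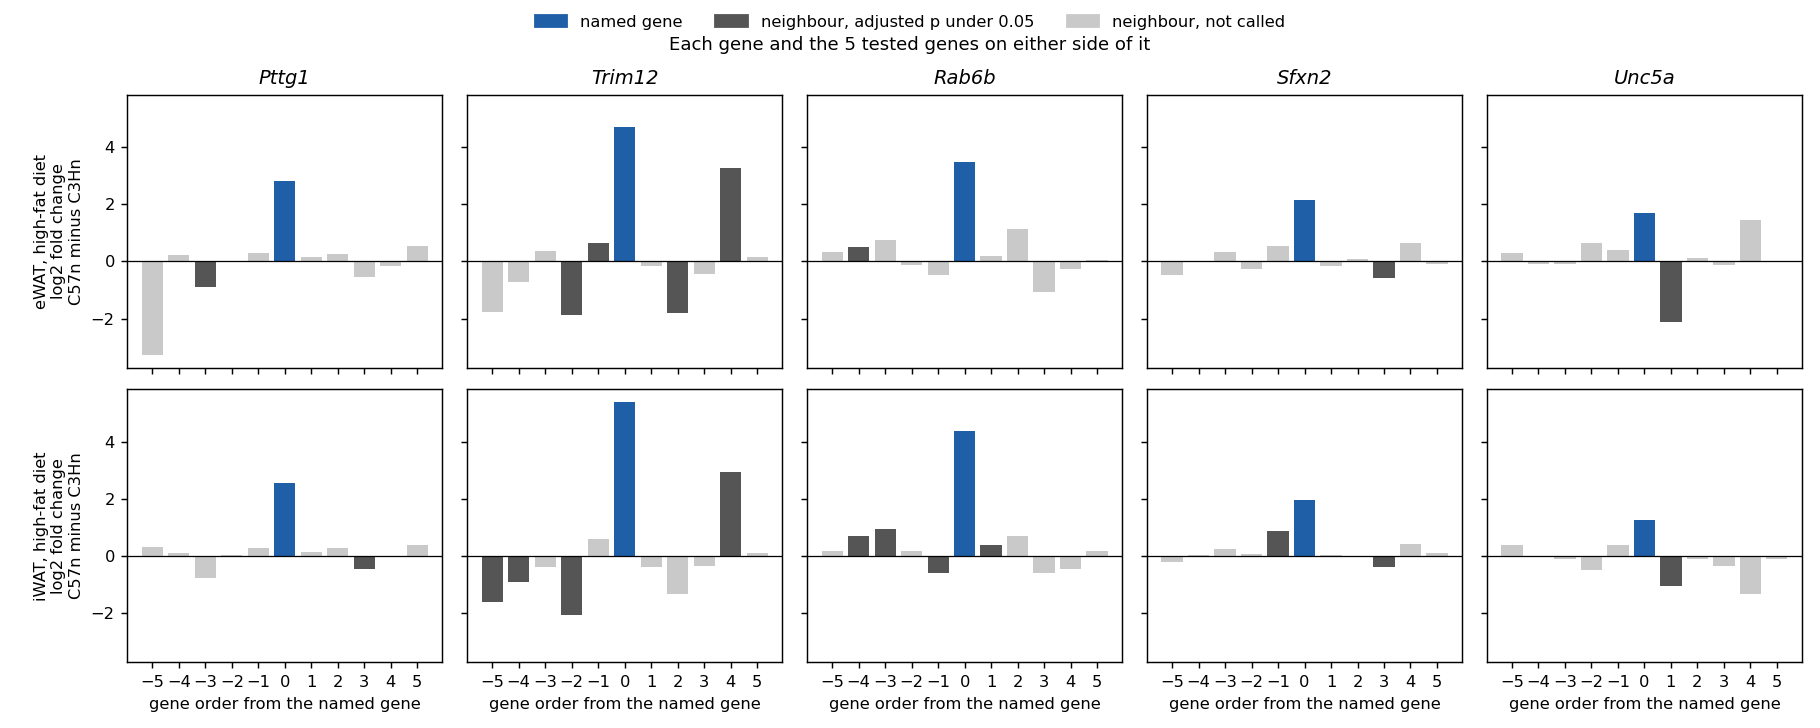
Log2 fold change (C57n minus C3Hn) on HFD of each of the 5 genes (blue) and of the 5 tested genes on either side of it, by order along the chromosome, in eWAT and iWAT; dark bars have an adjusted p under 0.05. Each of the 5 genes stands above all 10 of its neighbours in both depots, and the median of the 50 neighbours is 0.01 in eWAT and 0.05 in iWAT. Nothing is read from that standing, since the 5 genes were chosen for a nuclear difference and the neighbours were not.

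The genes most alike in pattern were found by correlating log2 CPM over 13339 genes, as a description over libraries that the nuclear contrast splits in the same way. Over the 20 group means AA388235 was most like Pttg1 (Pearson r = 0.983), and Cdsn, a skin adhesion protein, most like Sfxn2 (r = 0.989). Rab6b was the closest to Unc5a (r = 0.925) and Trim12 was among the 3 closest to Rab6b (r = 0.957). Over 75 libraries with tissue and diet means removed, Trim12 was the closest to Sfxn2 (r = 0.941) and AA388235 to Pttg1 (r = 0.955). D14Ertd449e was then the closest to Unc5a, at a lower r of 0.844.

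The promoters, 300 bases each from RefSeq on GRCm38.p6, were found for all 5 genes. The motif CCAAT, searched on both strands, occurred 2 times in the Trim12a promoter and 1 time in that of Sfxn2, and 37.4% of 32851 promoters hold it. It was not in the windows of Pttg1, Rab6b and Unc5a. TTCNNNGAA, also on both strands, was in 0 of the 5 windows (8.30% of promoters hold it), and a pair of GAAA with 2 bases of any kind between them occurred 1 time in that of Trim12a and in no other (3.44%). The data hold no measure of binding there, and no promoter sequence is shown.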

How the data were processed

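The labels describe 75 mouse RNA-seq libraries. The values are the authors' deposited RSEM expected counts per gene and per transcript, not normalized, for build mm9, per the submitters' processing notes, which also name DESeq2 1.10.1. For the read mapper, the annotation release and the strand setting, nothing is stated in the sources used here. Per the file headers, the deposited quality tables give reads mapped to the transcriptome in percent and the rate of bases differing from the reference as a fraction of aligned bases. All sample columns of the count tables were matched to the labels, and replicate numbers follow the order of the samples.

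The 5 genes, the gene lists and the tests were chosen with earlier results of these data known. Genes were named by rule: the 5 genes, their nearest neighbours, the genes most alike in pattern, the called list genes and paralogs. AI451617 and Hk3 are such neighbours. Where a list had many called genes, up to 4 were named.

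After rounding the expected counts, a fit per tissue over all groups was made with edgeR 4.0.16 (R 4.3.3; TMM, filterByExpr with a minimum count of 10, minimum total of 15 and minimum proportion of 70%, quasi-likelihood F test, two-sided, Benjamini-Hochberg over all genes tested). Tested were 17687 genes for eWAT, 16884 for iWAT, 13735 for muscle and 16575 across both depots, and all 5 genes passed the filter each time. In the fit of each fat depot the filter took the libraries of both diets together. Trim12 rests on few reads with the C3H nucleus, since its C3Hn libraries on HFD held 1.92 to 20.0 expected counts. Log2 CPM used a prior count of 2. The script was tested on simulated data. DESeq2 1.42.0 served as an alternative.

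The titles give 12 animals with both depots on HFD, so the depots are paired by animal. The correlation of an animal's deviations between depots was 0.00334 to 0.356, with a median of 0.108 and 7 of 12 above 0.1. Run and lane codes were read from the titles, which do not explain them. Among the alternatives, the exclusion of libraries by marker sums and the leaving out of single libraries in the tests within and between mitochondrial genomes were chosen after seeing the data. With 15.7 to 31.5 M counts a library, the lowest levels rest on few reads: a count of 0 allows 3.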

Additional observations from a re-analysis of the deposited data

Results flagged for a closer look

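In 3 of 75 groups of 4 libraries of a gene (4%), 1 library lay far from the others by Dixon's test, where chance gives about 5%. Pttg1 in iWAT on chow was 2.38 CPM in C3Hn:C3Hmt replicate 1, above 1.73 to 1.84 CPM in the others. Rab6b in eWAT on chow was 56.6 CPM in C57n:C57mt replicate 3, above 17.3 to 23.0 CPM in the others, and this library is 1 of the 6 eWAT libraries rich in epithelium and epididymis markers. Rab6b in iWAT on HFD was 21.0 CPM in C57n:C57mt replicate 3, above 13.0 to 14.3 CPM in the others.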

How the results depend on the processing

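Every nuclear difference on HFD was positive under each alternative run. The number of all genes called higher in eWAT was 1796 with HFD libraries only, 212 with wild types only, 2314 without the libraries rich in epithelium markers, and 617 to 1424 leaving out 1 library at a time. In iWAT it was 650 with HFD libraries only and 490 with wild types only. Calls were lost for Unc5a in iWAT with HFD libraries only (1.23) and without the libraries rich in lymphocyte markers (0.78), with 0.99 to 1.84 leaving out 1 library, and for Pttg1 in iWAT with wild types only (1.73, adjusted p = 0.0535). Within single runs, values moved to 3.86 for Trim12 in eWAT, 3.69 for Rab6b in iWAT and 1.79 for Sfxn2 in iWAT. For Unc5a in iWAT they were 1.53 and 0.37, where the main fit gave 1.26. DESeq2 gave no adjusted p for Pttg1 in iWAT.

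For HFD minus chow, Sfxn2 in eWAT lost its call without a count filter (-0.29, adjusted p = 0.0505) and ranged from -0.33 to -0.24 leaving out 1 library. G+C and length offsets, fitted on the 84.0% and 83.9% of tested genes with a value, turned Unc5a to 0.055 in eWAT and 0.36 in iWAT and gave 2828 genes called in iWAT. Without the libraries rich in epithelium markers Rab6b in eWAT turned to 0.27 and Unc5a was called at -0.53. Without those rich in lymphocyte markers Rab6b in iWAT was not called (-0.38), Pttg1 in iWAT turned to -0.020 and 1768 genes were called. Leaving out 1 library gave -0.21 to 0.54 for Pttg1 and -0.41 to 0.015 for Unc5a in iWAT.

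For eWAT minus iWAT, the number of all genes called was 11 without a count filter, 174 with DESeq2 and 9 to 99 leaving out 1 library. With the animal as a replicate block it was 26, Pttg1 turned to -0.028 and Unc5a to -0.036, and the block changed no other call. Leaving out 1 library gave -0.91 to 0.55 for Pttg1 and -0.14 to 0.72 for Unc5a. In these cases the cause was not tested. Few reads with the C3H nucleus limit the precision of the fold changes of Trim12 and Rab6b.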
